A study of Arabidopsis thaliana with 12 samples.

Results

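The triple mutant gte4 eml1 eml2 of Arabidopsis thaliana was compared with wild type (WT) in a transcriptome of whole seedlings. The samples were chosen by their genotype labels, 3 of gte4 eml1 eml2 and 3 of WT, which makes 6 of the 12 samples of the series. The triple mutant is labelled homozygous for mutations in GTE4, EML1 and EML2, and WT carries none of them. The other 6 samples, 3 of gte4 and 3 of eml1 eml2, entered the same statistical fit and are used only to say where the triple mutant differs from a genotype that carries part of its mutations. All seedlings were 20 days old, were raised for 12 days on Murashige and Skoog plates and then in soil, and grew at 22 °C with 16 h of light and 8 h of dark. No treatment was given. The labels give neither the alleles, nor the time of day of harvest, nor whether the 3 samples of a genotype are separate plants, pools or repeat libraries of 1 harvest, so each p-value measures the spread between these samples, which may be technical.

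RNA was sequenced as 150-base read pairs, and the deposited value of each gene is a read count that the authors had normalized. Values summed to between 31990484 and 33897181 in the 3 gte4 eml1 eml2 samples and to between 32257673 and 33864799 in the 3 WT samples. Of 32548 genes in the table, 22315 had a mean of at least 1 over all samples and were tested. Changes are differences of log2(value + 1), gte4 eml1 eml2 minus WT, with their standard errors (SE) and p-values from limma adjusted by the Benjamini-Hochberg method over all genes tested. A gene with an adjusted p under 0.05 is said to have risen or fallen. Adding 1 makes the log2 change of low genes smaller than their ratio. In whole seedlings, fewer cells of a type and less RNA per cell cannot be told apart.

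GTE4 belongs to the BET group of bromodomain proteins, which bind acetylated lysines of histone tails at active genes. EML1 and EML2 are EMSY-like proteins that join an ENT domain to a Tudor-like domain, a fold known for binding methylated histones. By the series title, GTE4 and EML proteins form a chromatin reader complex for histone acetylation and trimethylated lysine 4 of histone H3 (H3K4me3), marks found at the start of transcribed genes. The comparison asks which transcripts differ when both kinds of subunit are mutated.

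GTE4 and EML2 transcripts were strongly reduced in the triple mutant, and EML1 transcript was not. GTE4 (AT1G06230, chromosome 1, 1906963 to 1911056 in TAIR10.1) had normalized counts of 97.3, 93.9 and 78.6 in gte4 eml1 eml2, against 1753, 1618 and 1737 in WT. The groups were far apart, with means of 89.9 ± 9.95 in gte4 eml1 eml2 and 1703 ± 73.6 in WT (SD, n = 3 each) and a log2 change of -4.23 (SE 0.14, limma adjusted p = 2.18e-10). EML2 (AT5G06780, chromosome 5, 2093883 to 2097239) had 32.1, 28.8 and 31.4 in gte4 eml1 eml2 and 612, 549 and 546 in WT, a log2 change of -4.17 (SE 0.11, limma adjusted p = 4.16e-13). EML2 was lower in the triple mutant than in eml1 eml2 as well, by a log2 difference of -1.77 (limma adjusted p = 3.27e-07). EML1 (AT3G12140, chromosome 3, 3868089 to 3871763) averaged 1004 ± 35.7 in gte4 eml1 eml2 and 928 ± 69.6 in WT, and the groups overlapped (log2 change 0.12, limma adjusted p = 0.222). A mutation that leaves the amount of transcript as it was is not visible in gene counts, and these data therefore do not test the eml1 genotype. The relatives EML3 and EML4 did not pass the test, with log2 changes of -0.14 (limma adjusted p = 0.0508, and 0.0116 to 0.178 over the alternatives tried) and 0.01 (limma adjusted p = 0.944).

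**Figure D1:**
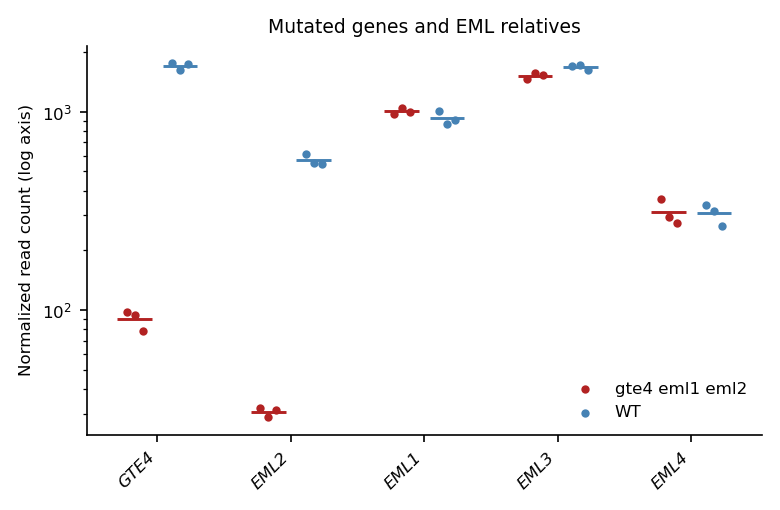
Normalized read counts (log axis) of GTE4, EML2, EML1, EML3 and EML4 in each of 3 gte4 eml1 eml2 samples (red, left of each pair) and 3 WT samples (blue), with lines at the means. GTE4 and EML2 lie far below WT in all 3 triple mutant samples, while EML1 and EML4 overlap between the genotypes.

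A large part of the transcriptome differed, mostly by small amounts. Of 22315 genes tested, 7495 or 33.6% passed the test, of which 3435 (15.4%) rose and 4060 (18.2%) fell in gte4 eml1 eml2. The values of the 3 triple mutant and 3 WT samples did not overlap for 45.6% of genes, and 32.4% were both called and without overlap. Of the 7495 called genes, 7237 did not overlap, so the non-overlap of a called gene below adds little to its call. The median size of a called change was 0.43 on the log2 scale, and 582 genes rose and 433 fell by at least 1 on that scale. The median log2 change over all tested genes was 0.00, so the members of each gene list below are read against a background centred on 0. The lists were chosen with earlier results of these data known. A list's count beside the share of all genes is therefore a description and not independent evidence. Against gte4 the triple mutant differed in 2131 genes or 9.55%, 998 (4.47%) higher and 1133 (5.08%) lower, and 83 of these by at least 1 on the log2 scale. That split depended on scaling, with 1097 higher and 618 lower when values were scaled to equal library totals. Against eml1 eml2 it differed in 370 genes or 1.66%, 95 (0.426%) higher and 275 (1.23%) lower. The gene and list differences from gte4 or eml1 eml2 given below are from the main fit only and were not tried under the alternatives.

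**Figure D2:**
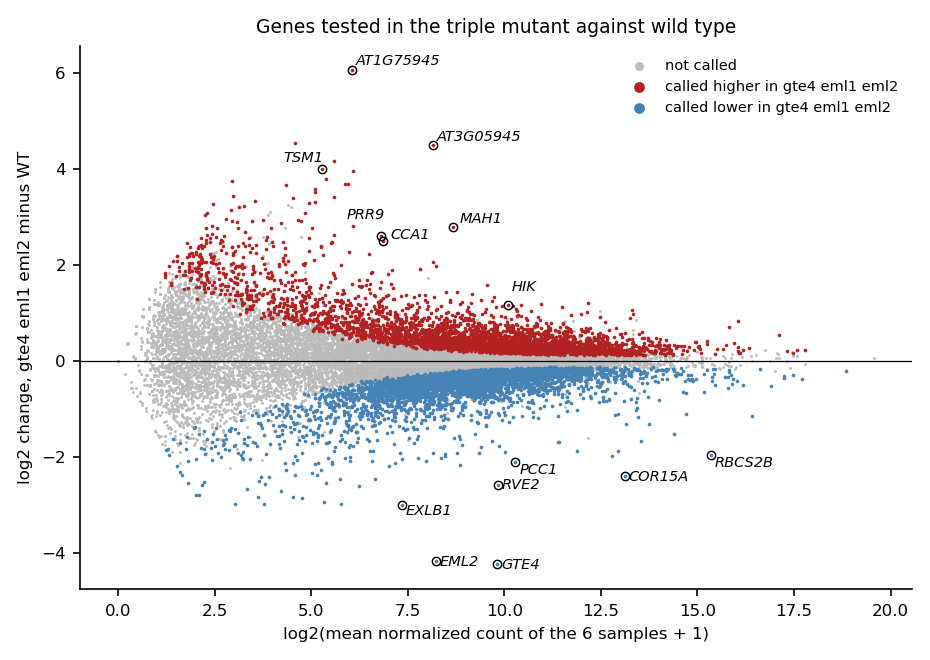
Log2 change of each of 22315 genes (gte4 eml1 eml2 minus WT) against its log2 mean normalized count, with genes that rose in red, genes that fell in blue and genes that were not called in grey. GTE4 and EML2 form the lower edge, and COR15A and RBCS2B are among the lowest points at high counts.

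Rises and falls were ranked among called genes whose groups did not overlap and whose higher group had a mean of at least 20. Non-overlap of a ranked gene is therefore no added evidence. The largest rise was in AT1G75945, an uncharacterized protein-coding gene. It had 109.7, 135 and 142 normalized counts in gte4 eml1 eml2, against 2.97, 0 and 0.86 in WT, where 1 sample is listed at 0 (log2 change 6.05, SE 0.35, limma adjusted p = 2.63e-08). Of the 12 largest rises, 4 were non-coding RNAs by the RefSeq annotation, and none of the 12 largest falls were. Among all 22315 genes tested, 21414 were protein-coding. So were 542 of the 582 that rose and 410 of the 433 that fell by at least 1 on the log2 scale. The long non-coding RNA AT3G05945 (chromosome 3, 11510090 to 11510510) had 529, 516 and 568 in gte4 eml1 eml2 and 31.1, 30.0 and 12.9 in WT, a log2 change of 4.49. AT3G05955 (chromosome 3, 11586005 to 11586548), another long non-coding RNA, had 107, 114 and 99.5 in gte4 eml1 eml2 and 7.36, 6.75 and 8.06 in WT (log2 change 3.69, limma adjusted p = 0.000367). It was also higher in the triple mutant than in each partial mutant, by 3.38 on the log2 scale against gte4 (limma adjusted p = 0.0067) and by 2.92 against eml1 eml2 (limma adjusted p = 0.026). The non-coding RNA AT1G67105 was higher than in both partial mutants too, with 105, 100.2 and 138 in gte4 eml1 eml2 and 6.46, 7.72 and 9.91 in WT (log2 change 3.68), and it exceeded gte4 by 1.08 (limma adjusted p = 0.0135) and eml1 eml2 by 1.79 (limma adjusted p = 0.0012). The fourth, AT2G24735, had 45.9, 37.0 and 50.1 in gte4 eml1 eml2 and 0, 2.93 and 0.873 in WT, and was higher than in gte4 (log2 difference 4.42, limma adjusted p = 0.00515). Of the 24 largest rises and falls, 5 differed between the triple mutant and gte4, where 9.55% of all genes did. Between the triple mutant and eml1 eml2 5 differed, where 1.66% of all genes did. The 24 include the mutated genes GTE4 and EML2, whose difference from a genotype without that mutation follows from the genotype.

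Of the other large rises, GRP17, TSM1, ATA27 and EXL4 are known from anthers and are described with the flower genes. AT2G33175, an uncharacterized gene, had 81.3, 54.7 and 92.9 in gte4 eml1 eml2 and 5.38, 8.75 and 1.63 in WT. AT5G13380, of the GH3 family that conjugates plant hormones to amino acids, had 26.6, 80.5 and 75.1 in gte4 eml1 eml2 and 0, 9.74 and 8.19 in WT (limma adjusted p = 0.00972), a call lost in 1 alternative setting. The pectate lyase family gene AT3G01270 passed the test on uneven values, with 0.954, 107 and 8.75 in gte4 eml1 eml2, while all 3 WT samples are listed at 0, so no fold is given. Its call was lost on leaving out gte4 eml1 eml2 replicate 2 or 3 or WT replicate 1, 2 or 3 (limma adjusted p of 0.063 to 0.0953) and in 3 other settings.

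After GTE4 and EML2, the largest fall by the same ranking was in EXLB1, an expansin-like B gene of a family related to wall-loosening proteins. It had 36.7, 29.0 and 39.7 normalized counts in gte4 eml1 eml2 and 253, 298 and 311 in WT (log2 change -3.00, SE 0.18, limma adjusted p = 7.57e-09). EXLB1 was also lower in the triple mutant than in gte4 (log2 difference -1.13, limma adjusted p = 0.00324) and than in eml1 eml2 (-0.94, limma adjusted p = 0.0108). The lectin receptor kinase gene AT2G43700 averaged 11.5 ± 2.75 in gte4 eml1 eml2 and 96.4 ± 8.23 in WT (SD, n = 3 each), and PME2, a pectin methylesterase, averaged 22.9 ± 12.6 in gte4 eml1 eml2 and 127 ± 11.8 in WT. The receptor-like protein gene RLP56 averaged 5.55 ± 0.822 in gte4 eml1 eml2 and 46.8 ± 8.61 in WT. The remaining falls of this rank were the F-box gene AT3G59190, the oxygenase gene AT1G77330, the methyl esterase MES6, the uncharacterized AT5G24215, the drought gene RD29B and the clock-related RVE2, with log2 changes between -2.98 and -2.57. AT5G24215 shares 57.1% of its exon bases with another gene, and its reads cannot be told from those of that gene without strand.

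Most of the listed cold and drought effector genes fell in the triple mutant. These genes encode hydrophilic proteins and chloroplast proteins that protect cells from freezing and drying. The CBF transcription factors switch many of them on through the CRT/DRE element, and abscisic acid acts through the ABRE element. Of 17 listed genes tested, 13 fell, none rose and 4 did not pass the test, where 18.2% of all genes fell, and the list's median log2 change was -0.84, against 0.00 over all genes. COR15A, which stabilizes chloroplast membranes, had 2787, 2868 and 2879.6 normalized counts in gte4 eml1 eml2 and 14868, 15206 and 14801 in WT. The groups were narrow and far apart (log2 change -2.39, SE 0.06, limma adjusted p = 4.16e-13). COR15A was also lower than in gte4, with a log2 difference of -0.40 (limma adjusted p = 0.00325), and than in eml1 eml2, with -0.34 (limma adjusted p = 0.0101). Its neighbour COR15B had 3275, 3067 and 3709 in gte4 eml1 eml2 and 11987, 12308 and 12488 in WT (log2 change -1.88). Over the 17 genes, 2 were lower in the triple mutant than in gte4 and 2 than in eml1 eml2, where 5.08% and 1.23% of all genes were. The median log2 differences were -0.13 and -0.05. The list summed to 67717 to 78836 in gte4 eml1 eml2, 76216 to 80072 in gte4 and 70204 to 80504.5 in eml1 eml2.

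The sequences below are the 250 bases before the annotated start of the genes with the largest falls of the cold list, shown because these genes share a direction and 3 known elements can be looked for in them. They come from the RefSeq genome, build TAIR10.1, read 5′ to 3′ on the strand of the gene. Capitals mark the CRT/DRE core CCGAC, the ABRE core ACGTG and the evening element AAATATCT on either strand, where the palindrome CACGTG holds 2 overlapping ABRE cores.
RD29B, plus strand, chr5:21236771-21237020: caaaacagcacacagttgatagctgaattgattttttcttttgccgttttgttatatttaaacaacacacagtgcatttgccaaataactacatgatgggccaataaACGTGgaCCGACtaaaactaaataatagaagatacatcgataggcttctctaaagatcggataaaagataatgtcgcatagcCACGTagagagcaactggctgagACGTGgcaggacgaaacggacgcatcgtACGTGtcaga
COR15A, minus strand, chr2:17712331-17712580: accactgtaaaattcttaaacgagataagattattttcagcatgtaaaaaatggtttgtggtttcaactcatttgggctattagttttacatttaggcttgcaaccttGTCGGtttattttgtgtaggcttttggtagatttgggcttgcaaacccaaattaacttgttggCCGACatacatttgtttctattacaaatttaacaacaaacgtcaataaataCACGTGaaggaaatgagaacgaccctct
KIN1, plus strand, chr5:5209467-5209716: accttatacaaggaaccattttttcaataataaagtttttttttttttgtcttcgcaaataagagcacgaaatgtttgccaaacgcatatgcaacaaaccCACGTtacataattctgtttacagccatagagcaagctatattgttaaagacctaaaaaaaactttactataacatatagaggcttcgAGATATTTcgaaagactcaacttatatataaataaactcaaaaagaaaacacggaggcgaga
HIS1-3, plus strand, chr2:7845673-7845922: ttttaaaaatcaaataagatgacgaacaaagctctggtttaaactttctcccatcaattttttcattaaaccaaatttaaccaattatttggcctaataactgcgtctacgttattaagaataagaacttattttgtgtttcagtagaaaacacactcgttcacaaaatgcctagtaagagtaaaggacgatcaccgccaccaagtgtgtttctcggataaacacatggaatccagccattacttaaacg
The RD29B window holds 1 CRT/DRE core and 4 ABRE cores, that of COR15A 2 and 2, and that of KIN1 1 ABRE core and 1 evening element, while none of the 3 is in the HIS1-3 window. The COR15B window is not printed because 243 of its bases lie in the transcript of COR15A. Of the 17 listed genes, 41.2% hold the CRT/DRE core in this window, 58.8% the ABRE core and 17.6% the evening element, against 12%, 22.9% and 4.78% of 27442 windows of protein-coding genes. The list was made of genes known from cold and drought responses, so these shares follow from its choice and do not bear on the fall. Both the CRT/DRE and ABRE cores also occur in windows of listed genes that did not pass the test. A match is a run of letters and was not shown to be bound.

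The genes with these windows differed in level. RD29B, a late gene of the desiccation response, had 2.41, 5.64 and 4.19 normalized counts in gte4 eml1 eml2 and 30.9, 29.9 and 32.2 in WT (log2 change -2.71, limma adjusted p = 0.00013). KIN1, a small cold-induced hydrophilic protein, had 12.9, 11.8 and 24.9 in gte4 eml1 eml2 and 88.9, 70.5 and 61.2 in WT (log2 change -2.15, limma adjusted p = 0.000116). HIS1-3, a drought-induced linker histone, had 36.6, 26.8 and 39.7 in gte4 eml1 eml2 and 199.98, 95.3 and 168 in WT (log2 change -2.09, limma adjusted p = 8.91e-06). In KIN1 and HIS1-3 every triple mutant sample was below every WT sample, as also in RD29B, where the ranking required it. The more abundant members fell as well. KIN2 averaged 7938 ± 539 in gte4 eml1 eml2 and 19585 ± 407 in WT (SD, n = 3 each). The dehydrin COR47 averaged 4995 ± 486 in gte4 eml1 eml2 and 10732 ± 1455 in WT, and RD29A averaged 7152 ± 185 in gte4 eml1 eml2 and 14611 ± 1166 in WT. KIN1 and KIN2 are close copies and stand next to each other, so reads may have been split between them. The abscisic acid marker RAB18 did not pass the test, with 558 ± 84.0 in gte4 eml1 eml2 and 529 ± 22.3 in WT (limma adjusted p = 0.663).

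Of 8 CBF factors and regulators tested, 2 rose and 1 fell, near the 33.6% called among all genes, with a median log2 change of -0.45. The counts were 0 to 1 higher and 1 to 4 lower with gte4 eml1 eml2 replicate 1, 2 or 3 or WT replicate 1, 2 or 3 left out (here and in what follows, each sample named was left out in turn). CBF1 had 19.5, 14 and 22.9 normalized counts in gte4 eml1 eml2 and 41.5, 95.9 and 87.0 in WT, with no overlap (log2 change -1.87, SE 0.35, limma adjusted p = 0.000695). CBF2 and CBF3 did not pass the test and overlapped between the genotypes (log2 changes -1.05 and -0.60, limma adjusted p = 0.189 and 0.622). With WT replicate 1 left out, CBF2 passed, at a log2 change of -1.72 (limma adjusted p = 0.00479). MYB15, a repressor of CBF genes, rose by 1.28, a call lost on leaving out gte4 eml1 eml2 replicate 1 or WT replicate 1 (limma adjusted p of 0.0701 to 0.0833) and in 2 other settings. The activator CAMTA3 rose by 0.31, a call lost on leaving out gte4 eml1 eml2 replicate 1, 2 or 3 or WT replicate 2 or 3 (limma adjusted p of 0.0584 to 0.111) and in 2 other settings.

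Clock genes changed in both directions, with the morning genes CCA1, LHY and PRR9 higher and ELF4, BOA and TOC1 lower in the triple mutant. In the plant clock the morning MYB factors CCA1 and LHY repress evening genes, PRR proteins repress CCA1 and LHY through the day, and the evening complex of ELF3, ELF4 and LUX or BOA acts at night. Of 22 listed clock genes tested, 12 rose and 7 fell, where 15.4% of all genes rose and 18.2% fell, with a median log2 change of 0.20. Several of these calls, for genes whose changes are not given here, were lost in 3 to 10 of 19 alternatives. CCA1 had 219, 215 and 151 normalized counts in gte4 eml1 eml2 and 29.0, 33.8 and 37.7 in WT (log2 change 2.49, SE 0.19, limma adjusted p = 8.53e-08). LHY had 98.5, 65.5 and 40.1 in gte4 eml1 eml2 and 25.6, 16.4 and 18.7 in WT (log2 change 1.63, limma adjusted p = 0.000812). The morning-phased repressor PRR9 had 239.9, 194 and 141 in gte4 eml1 eml2 and 31.0, 33.9 and 25.7 in WT (log2 change 2.60, SE 0.30, limma adjusted p = 3.95e-05). For all 3 genes the lowest triple mutant sample lay above the highest WT sample. PRR7 and PRR5, which follow PRR9 in the day, rose less, with log2 changes of 0.62 and 0.47 (limma adjusted p = 0.000194 and 0.0125), and the call of PRR5 was lost on leaving out gte4 eml1 eml2 replicate 2 or WT replicate 1 (limma adjusted p of 0.0502 to 0.056).

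ELF4, BOA and TOC1, which peak in the evening, fell. ELF4 had 1660.2, 1496 and 1852 normalized counts in gte4 eml1 eml2 and 3606, 3731 and 3679 in WT (log2 change -1.14, limma adjusted p = 1.04e-08). BOA had 125, 147 and 186 in gte4 eml1 eml2 and 266, 333 and 323 in WT (log2 change -1.02, limma adjusted p = 0.000682). TOC1, the evening PRR protein, had 4101, 4744 and 5161 in gte4 eml1 eml2 and 6425, 6400.4 and 7104 in WT (log2 change -0.51, limma adjusted p = 0.00444). None of these groups overlapped. RVE2, an MYB gene related to CCA1, fell most, to 167, 294 and 348 in gte4 eml1 eml2, against 1298, 1589 and 1759.7 in WT (log2 change -2.57, SE 0.36, limma adjusted p = 0.000717). GI rose slightly (log2 change 0.18), but with the exon length trend removed its change was 0.05 (limma adjusted p = 0.538) and it was not called. LUX did not pass the test (log2 change -0.46, limma adjusted p = 0.0787), but passed in 6 alternatives with limma adjusted p of 2.69e-07 to 0.0488, among them that without gte4 eml1 eml2 replicate 3 (0.0453). Against gte4, 3 clock genes were higher and 1 lower in the triple mutant, where 4.47% and 5.08% of all genes were. None differed from eml1 eml2. The time of harvest of each genotype is not given in the labels, so its part in these differences was not tested.

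The evening element is the known binding site of CCA1 and LHY, and the windows of BOA and TOC1, which fell and hold it, are shown here with the same capitals and from the same build.
BOA, plus strand, chr5:24003638-24003887: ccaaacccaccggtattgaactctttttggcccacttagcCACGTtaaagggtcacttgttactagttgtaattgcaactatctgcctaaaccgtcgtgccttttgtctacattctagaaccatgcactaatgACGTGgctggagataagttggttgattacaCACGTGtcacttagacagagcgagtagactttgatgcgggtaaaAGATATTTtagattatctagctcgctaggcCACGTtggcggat
TOC1, plus strand, chr5:24674713-24674962: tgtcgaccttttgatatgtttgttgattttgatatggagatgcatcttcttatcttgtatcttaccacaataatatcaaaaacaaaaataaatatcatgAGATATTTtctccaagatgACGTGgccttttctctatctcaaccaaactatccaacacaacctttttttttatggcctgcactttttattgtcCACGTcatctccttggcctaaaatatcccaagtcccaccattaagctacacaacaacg
The evening element occurs once in each of these windows. It is in 28.6% of 21 clock gene windows, against 4.78% of all windows. Of these 6 genes, BOA and TOC1 fell, PRR5 and RVE7 rose, and LUX and FKF1 did not pass the test. The list was made of known clock genes, so the share of 28.6% may follow from its choice. Whether CCA1 or LHY acts on these windows was not tested. RVE7, an MYB gene related to CCA1, rose by 0.96, a call lost on leaving out gte4 eml1 eml2 replicate 1 or WT replicate 2 or 3 (limma adjusted p of 0.0542 to 0.0619).

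**Figure D3:**
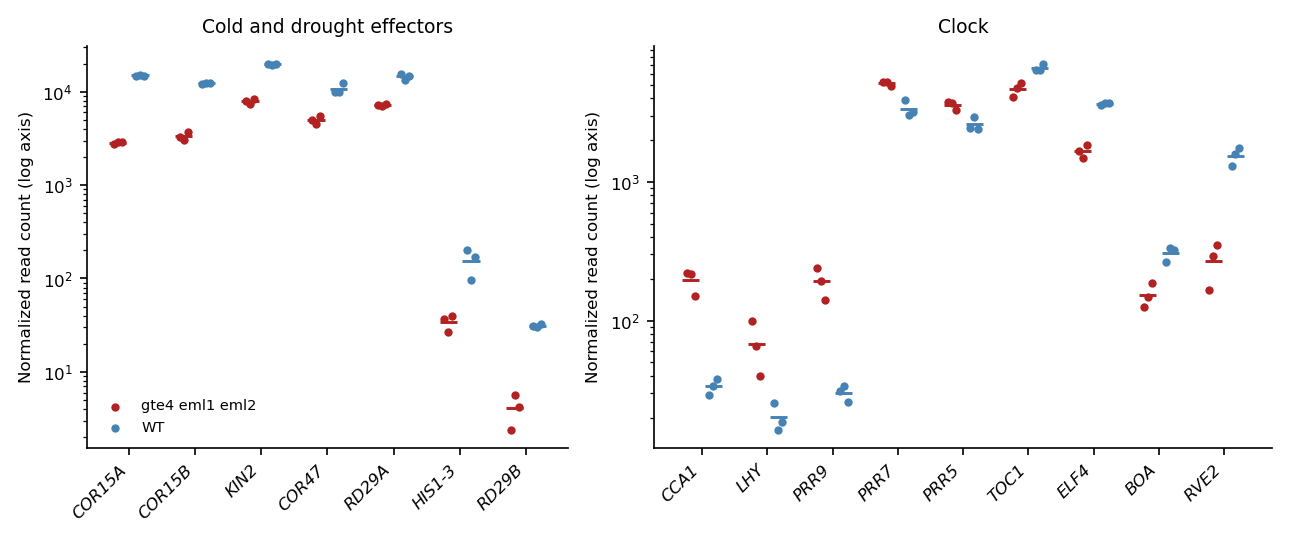
Normalized read counts (log axis) of cold and drought genes (left panel) and clock genes (right panel) in 3 gte4 eml1 eml2 samples (red, left of each pair) and 3 WT samples (blue), with lines at the means. All the cold genes drawn are lower in gte4 eml1 eml2, while CCA1, LHY and PRR9 are higher and TOC1, ELF4, BOA and RVE2 lower.

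Several promoters of flowering were higher in the triple mutant. Of 13 promoters of flowering tested, 6 rose and none fell, where 15.4% of all genes rose, with a median log2 change of 0.33. None of the 13 differed between the triple mutant and gte4 or eml1 eml2. FT, the mobile flowering signal made in leaves, had 43.6, 44.6 and 40.8 normalized counts in gte4 eml1 eml2 and 27.3, 7.61 and 13.2 in WT, with no overlap (log2 change 1.54, SE 0.37, limma adjusted p = 0.00478). The meristem identity gene AP1 had 156, 171 and 178 in gte4 eml1 eml2 and 93.5, 100.4 and 136 in WT (log2 change 0.63). The age-pathway factors SPL5 and SPL9 rose by 0.61 and 0.48 on the log2 scale (limma adjusted p = 0.00229 and 0.000129). SOC1, which integrates flowering signals, averaged 2061 ± 13.5 in gte4 eml1 eml2 and 1850.2 ± 83.7 in WT (SD, n = 3 each), a small rise (log2 change 0.16, limma adjusted p = 0.0267) that was lost on leaving out gte4 eml1 eml2 replicate 1, 2 or 3 or WT replicate 1 or 2 (limma adjusted p of 0.0562 to 0.0928).

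Of 15 floral repressors tested, 3 rose and 3 fell, near the 15.4% and 18.2% of all genes, with a median log2 change of -0.03, against 0 to 1 higher and 2 to 3 lower with gte4 eml1 eml2 replicate 1 or 3 or WT replicate 1, 2 or 3 left out. FLC, the main repressor removed by winter cold, had 17.2, 19.3 and 12.6 normalized counts in gte4 eml1 eml2 and 17.8, 4.74 and 11.6 in WT, and the groups overlapped (log2 change 0.63, SE 0.52, limma adjusted p = 0.386). FLC shares 68.1% of its exon bases with another annotated gene, so its low values are uncertain. Its relative MAF4 fell, with 3.35, 2.28 and 0.0204 in gte4 eml1 eml2 and 27.2, 7.61 and 14.2 in WT (log2 change -2.66, limma adjusted p = 0.00546). FLM, another member of that family, averaged 833 ± 25.4 in gte4 eml1 eml2 and 1018 ± 29.5 in WT (log2 change -0.29). SMZ rose by 1.07, a call lost on leaving out gte4 eml1 eml2 replicate 1 or WT replicate 1 or 3 (limma adjusted p of 0.0569 to 0.0624), and TFL1 by 0.88, a call lost on leaving out gte4 eml1 eml2 replicate 1 or 3 or WT replicate 2 or 3 (limma adjusted p of 0.0566 to 0.105) and in 1 other setting.

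Floral organ and anther genes made up the highest lists. Of 11 floral organ identity genes tested, 6 rose and none fell, where 15.4% of all genes rose, and the median log2 change was 1.22. SEP3, which joins other MADS factors into organ-specifying complexes, had 243, 288 and 329 normalized counts in gte4 eml1 eml2 and 115, 100.4 and 121 in WT (log2 change 1.34, SE 0.15, limma adjusted p = 4.45e-06). PI had 115, 108 and 172 in gte4 eml1 eml2 and 35.5, 61.0 and 51.0 in WT, and its petal and stamen partner AP3 had 112, 106 and 135 in gte4 eml1 eml2 and 31.8, 44.4 and 70.5 in WT (log2 changes 1.41 and 1.31). The ovule gene STK had 10.5, 15.9 and 14.6 in gte4 eml1 eml2 and 0.336, 2.90 and 5.51 in WT. None of these 4 overlapped between the genotypes. No member of the list differed between the triple mutant and gte4 or eml1 eml2.

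Of 19 tapetum and pollen wall genes tested, 16 rose and none fell, where 15.4% of all genes rose. The median log2 change was 1.69. The tapetum is the anther layer that feeds pollen and makes its wall. The values of the 20 listed genes together summed to between 1768 and 2461 in the gte4 eml1 eml2 samples and between 628 and 995 in the WT samples, and up to 3 of the listed genes were at 0 in a WT sample. The glucanase-like gene A6 had 313, 385 and 367 normalized counts in gte4 eml1 eml2 and 59.7, 116 and 114 in WT (log2 change 1.92, limma adjusted p = 0.000159). The fatty acyl reductase MS2, a sporopollenin enzyme, had 149, 232 and 257 in gte4 eml1 eml2 and 46.0, 53.1 and 69.2 in WT (log2 change 1.89). TSM1, a methyltransferase of spermidine conjugates, had 46.8, 84.3 and 79.4 in gte4 eml1 eml2 and 0, 8.76 and 7.28 in WT (log2 change 4.0, limma adjusted p = 0.00378), and ATA1 had 65.8, 79.0 and 80.5 in gte4 eml1 eml2 and 3.95, 23.3 and 19.9 in WT. Against gte4, 8 of the 19 were higher and 1 lower in the triple mutant, where 4.47% and 5.08% of all genes were. A6 was among the higher (log2 difference 1.48, limma adjusted p = 0.00805). Against eml1 eml2, 0 were higher and 1 lower in the triple mutant, where 0.426% and 1.23% of all genes were. The listed genes summed to between 2207 and 2915 in the eml1 eml2 samples.

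The pollen coat genes were less even between samples. GRP17 had 47.1, 65.8 and 121 normalized counts in gte4 eml1 eml2 and 0.46, 0 and 46.4 in WT (log2 change 4.16, SE 1.29, limma adjusted p = 0.0375). GRP19 had 26.3, 61.5 and 66.7 in gte4 eml1 eml2 and 0.454, 2.83 and 21.3 in WT, and the extracellular lipase EXL4 had 51.9, 39.7 and 75.0 in gte4 eml1 eml2 and 0, 2.82 and 27.9 in WT. ATA27, a glycosyl hydrolase that lies next to AT1G75945, had 70.4, 149 and 141 in gte4 eml1 eml2 and 0, 14.5 and 25.7 in WT. In these 4 genes WT replicate 3 stood above the other WT samples. The call of GRP17 was lost on leaving out gte4 eml1 eml2 replicate 1, 2 or 3 or WT replicate 1 or 2 (limma adjusted p of 0.0659 to 0.117) and in 1 other setting, and that of GRP19 on leaving out gte4 eml1 eml2 replicate 2 or 3 or WT replicate 2 (limma adjusted p of 0.0654 to 0.0679) and in 1 other setting. The call of EXL4 was lost on leaving out gte4 eml1 eml2 replicate 1, 2 or 3 or WT replicate 1 or 2 (limma adjusted p of 0.0568 to 0.087) and in 1 other setting, and that of ATA27 on leaving out gte4 eml1 eml2 replicate 2 or 3 (limma adjusted p of 0.0621 to 0.0653) and in 1 other setting. These lists mark flower tissue, and the share of such tissue in each sample was not measured, so its part in their rise was not tested. The summed floral organ list ran from 1362 to 1648 in gte4 eml1 eml2 and from 898 to 1079 in WT.

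Most of the listed cell division genes rose. Of 20 genes of mitosis and cytokinesis tested, 15 rose, none fell and 5 did not pass the test, where 15.4% of all genes rose, with a median log2 change of 0.44, against 14 higher and 1 lower with gte4 eml1 eml2 replicate 2 left out. HIK, a kinesin that builds the cell plate, had 1400.0, 1647 and 1464 normalized counts in gte4 eml1 eml2 and 814, 595 and 624 in WT (log2 change 1.16, SE 0.11, limma adjusted p = 3.76e-06). The spindle factor TPX2 had 691, 858 and 742 in gte4 eml1 eml2 and 410.2, 358 and 397 in WT (log2 change 0.97, limma adjusted p = 1.05e-06). The microtubule-bundling gene PLE and the Aurora kinase AUR1 rose by 0.75 and 0.63 on the log2 scale. Every triple mutant sample was above every WT sample in these 4 genes. HIK, TPX2 and PLE were also higher than in gte4, by 0.63, 0.56 and 0.43 (limma adjusted p = 0.00666, 0.00381 and 0.00666), and none of the list differed from eml1 eml2.

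Of 13 genes of S phase and replication tested, 11 rose and none fell, where 15.4% of all genes rose. The median log2 change was 0.52. MCM4, a subunit of the replicative helicase, had 1219, 1191 and 1243 normalized counts in gte4 eml1 eml2 and 768, 809 and 797 in WT (log2 change 0.62, SE 0.05, limma adjusted p = 4.61e-07). The subunits MCM6 and MCM2 rose by 0.64 and 0.61. CDC6, which loads the helicase, rose by 0.88 (limma adjusted p = 0.0129), a call lost on leaving out WT replicate 2 (limma adjusted p = 0.0504). Of the list, 6 were higher than in gte4, where 4.47% of all genes were, and none differed from eml1 eml2. The 8 genes of the DNA damage response tested had 2 rises, 1 fall and a median of 0.07, near the 33.6% called among all genes. Their counts were 0 to 1 higher and 0 to 1 lower with gte4 eml1 eml2 replicate 1, 2 or 3 or WT replicate 1, 2 or 3 left out. The cell cycle inhibitor SMR7 rose by 1.43, a call lost on leaving out gte4 eml1 eml2 replicate 1, 2 or 3 or WT replicate 1 (limma adjusted p of 0.0529 to 0.124) and in 2 other settings. The repair genes BRCA1 and PARP1 had log2 changes of 0.30 and -0.33, the first call lost on leaving out gte4 eml1 eml2 replicate 2 or WT replicate 2 or 3 (limma adjusted p of 0.108 to 0.132) and in 3 other settings and the other on leaving out gte4 eml1 eml2 replicate 1 or 3 or WT replicate 1 or 2 (limma adjusted p of 0.059 to 0.195) and in 6 other settings.

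**Figure D4:**
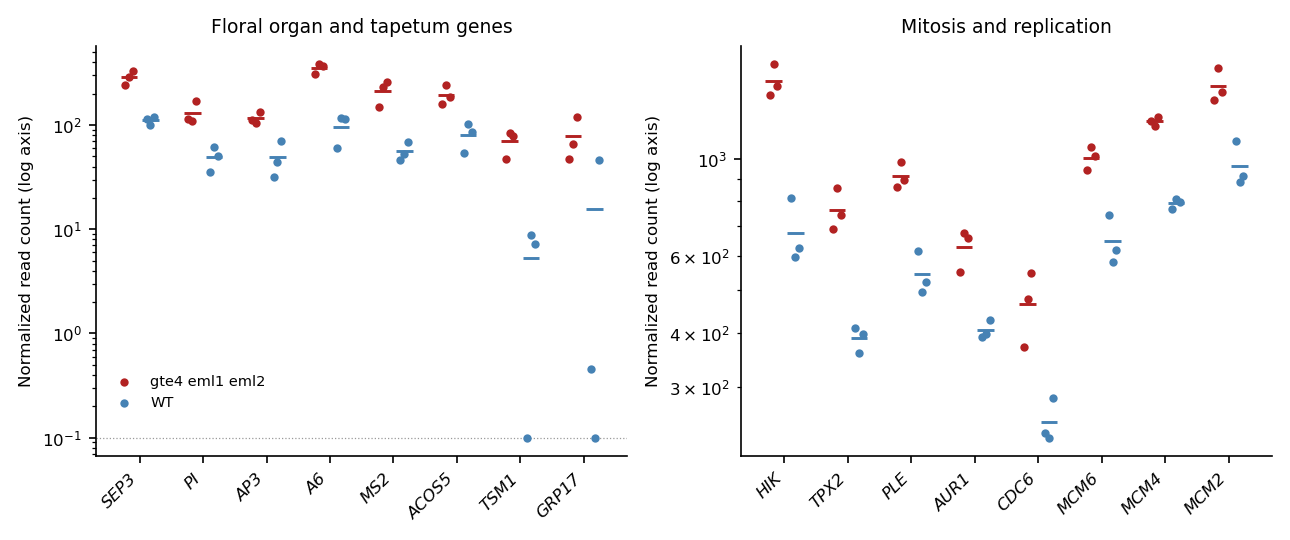
Normalized read counts (log axis) of floral organ and tapetum genes (left panel) and of mitosis and replication genes (right panel) in 3 gte4 eml1 eml2 samples (red, left of each pair) and 3 WT samples (blue), with lines at the means and values under 0.1 drawn at 0.1 on the dotted line. The triple mutant samples lie above the WT samples for every gene drawn, and GRP17 in WT spreads from 0 to 46.4.

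Of 27 genes of salicylic acid and immunity tested, 4 rose and 6 fell, with a median log2 change of -0.06. These counts are close to the 15.4% of all genes that rose and the 18.2% that fell, and the genes described here are single members of the list. PCC1, a small pathogen- and clock-controlled protein, had 450.3, 511 and 451 normalized counts in gte4 eml1 eml2 and 1939, 1924 and 2196 in WT (log2 change -2.10, SE 0.11, limma adjusted p = 6.67e-09). SARD4, an enzyme of the mobile signal pipecolic acid, averaged 174 ± 25.4 in gte4 eml1 eml2 and 403 ± 14.7 in WT, and the transcription factor WRKY54 averaged 741 ± 114 in gte4 eml1 eml2 and 1656 ± 10.11 in WT (SD, n = 3 each). All 3 genes were lower than in gte4 as well (log2 differences -0.98, -0.73 and -0.70, limma adjusted p = 0.000462, 0.0037 and 0.00156). PBS3, which completes salicylic acid synthesis, had 365, 371 and 304 in gte4 eml1 eml2 and 165, 131 and 136 in WT, a rise (log2 change 1.26, limma adjusted p = 1.81e-05). ICS1, which makes its precursor, rose by 0.48 on the log2 scale (limma adjusted p = 0.00177).

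Of 18 NLR immune receptors tested, 3 rose and 4 fell, near the 15.4% and 18.2% of all genes, with a median of 0.04, against 3 higher and 2 lower with gte4 eml1 eml2 replicate 1, 2 or 3 or WT replicate 1 or 2 left out. RPP7, a receptor for downy mildew, had 4005, 4744 and 4461 normalized counts in gte4 eml1 eml2 and 7456, 5531 and 6050.2 in WT (log2 change -0.52, limma adjusted p = 0.00502), and ZAR1 fell by 0.41. RPP1 and RPP4 rose by 0.53 and 0.39 (limma adjusted p = 0.00102 and 0.00397), and both belong to clusters of similar genes, whose reads are hard to assign. Of 28 genes of jasmonate and ethylene defence tested, 5 rose and 3 fell, also close to or below those shares, with a median of 0.08, against 2 to 3 higher and 3 to 4 lower with gte4 eml1 eml2 replicate 1, 2 or 3 or WT replicate 1 or 3 left out. AOC2, a jasmonate synthesis enzyme, had 2099.7, 1871 and 2150.2 in gte4 eml1 eml2 and 3857, 4707 and 4073 in WT (log2 change -1.04, limma adjusted p = 2.02e-07). The storage protein VSP2, a jasmonate-induced marker, had 2018, 1787 and 1934 in gte4 eml1 eml2 and 762, 994 and 819 in WT (log2 change 1.16, limma adjusted p = 4.88e-07). The repressor JAZ8 rose by 1.51 at low counts, a call lost on leaving out gte4 eml1 eml2 replicate 1 or 2 or WT replicate 1 or 2 (limma adjusted p of 0.0512 to 0.0923) and in 1 other setting, and the ethylene-jasmonate factor ORA59 by 0.90, a call lost on leaving out gte4 eml1 eml2 replicate 2 or 3 or WT replicate 3 (limma adjusted p of 0.0594 to 0.134) and in 1 other setting. None of 9 indole glucosinolate and camalexin genes passed limma's adjusted test, and 0 had an unadjusted p under 0.05.

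Flavonoid and wax genes held many rises and no fall. Of 18 anthocyanin and flavonoid genes tested, 9 rose and 9 did not pass the test, where 15.4% of all genes rose, with a median log2 change of 0.63. The late pathway enzyme LDOX averaged 265 ± 28.7 in gte4 eml1 eml2 and 137 ± 26.3 in WT, and DFR, which acts before it, averaged 276 ± 52.0 in gte4 eml1 eml2 and 148 ± 30.0 in WT (SD, n = 3 each), with log2 changes of 0.97 and 0.90. The activator PAP1 had 99.1, 69.2 and 72.3 normalized counts in gte4 eml1 eml2 and 36.2, 46.5 and 29.2 in WT (log2 change 1.09, limma adjusted p = 0.0112), a call lost on leaving out WT replicate 3 (limma adjusted p = 0.0519), and the repressor MYBL2 rose by 0.97 (limma adjusted p = 0.00407). Against gte4, 3 members were lower in the triple mutant, where 5.08% of all genes were.

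Of 9 cuticular wax genes tested, 7 rose and 2 did not pass the test, where 15.4% of all genes rose, with a median of 0.45. Against gte4, 1 of them was higher in the triple mutant, where 4.47% of all genes were, and none differed from eml1 eml2. MAH1, which makes wax ketones and alcohols in the stem, had 521, 814 and 807 normalized counts in gte4 eml1 eml2 and 72.1, 100.4 and 142 in WT (log2 change 2.78, SE 0.34, limma adjusted p = 0.000346). The regulator WIN1 had 43.4, 34.6 and 38.7 in gte4 eml1 eml2 and 10.6, 11.5 and 27.3 in WT, and the alkane enzyme CER1 and ester enzyme WSD1 rose by 0.57 and 0.72. Of 18 aliphatic glucosinolate genes tested, 4 rose and 2 fell, near the 33.6% called among all genes. The counts were 4 higher and 1 lower with gte4 eml1 eml2 replicate 2 left out. MYB76 rose by 1.07 (limma adjusted p = 0.000413) and its relative MYB29 fell by 0.49, a call lost on leaving out gte4 eml1 eml2 replicate 2 (limma adjusted p = 0.0557), while the chain elongation gene MAM3 had 252, 218 and 198 in gte4 eml1 eml2 and 497, 399 and 371 in WT (log2 change -0.92).

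Of 21 light harvesting and Rubisco genes tested, 8 rose and 5 fell, where 15.4% of all genes rose and 18.2% fell, with a median of 0.10. RBCS2B, a small subunit of Rubisco, had 16312, 16578 and 18887 normalized counts in gte4 eml1 eml2 and 62960.4, 63717 and 73192 in WT (log2 change -1.95, SE 0.07, limma adjusted p = 1.77e-10). It was also lower than in gte4 (log2 difference -0.64, limma adjusted p = 0.000548) and in eml1 eml2 (-0.74, limma adjusted p = 7.61e-05). RBCS1B, the next gene in the same cluster, had 12229.5, 11552 and 11794 in gte4 eml1 eml2 and 18963, 22115 and 21121 in WT (log2 change -0.80). The antenna genes LHCB2.1 and LHCB2.2 rose by 0.84 and 0.71 (limma adjusted p = 0.000189 and 0.000106). Members of both families are close copies and share reads, so their split is uncertain. The calls numbered 2 to 5 higher and 4 to 5 lower with gte4 eml1 eml2 replicate 1 or 3 or WT replicate 1 left out.

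Chromatin lists are read against the 15.4% of all genes that rose and the 18.2% that fell. Of 14 H3K4 and H3K36 methylation genes tested, 6 rose and 1 fell, with a median log2 change of 0.14. The methyltransferases ATX3 and ATXR3 rose by 0.49 and 0.44 (limma adjusted p = 0.000396 and 0.000275), and the reader MRG2 fell by 0.43 (limma adjusted p = 0.00194). The calls numbered 3 to 5 higher and 1 to 2 lower with gte4 eml1 eml2 replicate 2 or 3 left out. Of 10 histone acetylation enzymes tested, 1 rose and 2 fell, close to the shares of all genes, against 1 to 2 higher and 1 to 2 lower with gte4 eml1 eml2 replicate 1, 2 or 3 or WT replicate 1, 2 or 3 left out. The deacetylase HDA19 averaged 4395 ± 262 in gte4 eml1 eml2 and 3629.8 ± 139 in WT, and the acetyltransferase HAM2 averaged 329.5 ± 15 in gte4 eml1 eml2 and 429.8 ± 14.7 in WT (SD, n = 3 each). Of 11 Polycomb and H3K27 genes tested, 2 rose and 2 fell, again close to those shares, against 2 higher and 0 to 1 lower with gte4 eml1 eml2 replicate 2 or WT replicate 3 left out. The H3K27 demethylases ELF6 and REF6 rose by 0.36 and 0.25, and the call of REF6 was lost in 2 alternative settings.

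Of 17 DNA methylation genes tested, 5 rose and 3 fell, against 3 higher and 3 lower with gte4 eml1 eml2 replicate 2 left out and 2 rises and 4 falls after removal of the length trend. FDM2, of the RNA-directed methylation pathway, had 78.3, 84.8 and 91.0 normalized counts in gte4 eml1 eml2 and 392, 311 and 338 in WT (log2 change -2.02, SE 0.14, limma adjusted p = 3.17e-08), and was lower than in eml1 eml2 (-0.86, limma adjusted p = 0.00485). The demethylase ROS1 fell by 0.59, while AGO4 and CMT3, which act in methylation, rose by 0.43 and 0.34. Of 11 other GTE genes tested, 2 rose and 1 fell, near the 33.6% called among all genes. GTE10 and GTE8 rose by 0.69 and 0.27 (limma adjusted p = 4.35e-05 and 0.00413) and GTE7 fell by 0.60, a call lost on leaving out gte4 eml1 eml2 replicate 1 or 2 or WT replicate 2 or 3 (limma adjusted p of 0.0593 to 0.0953).

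**Figure D5:**
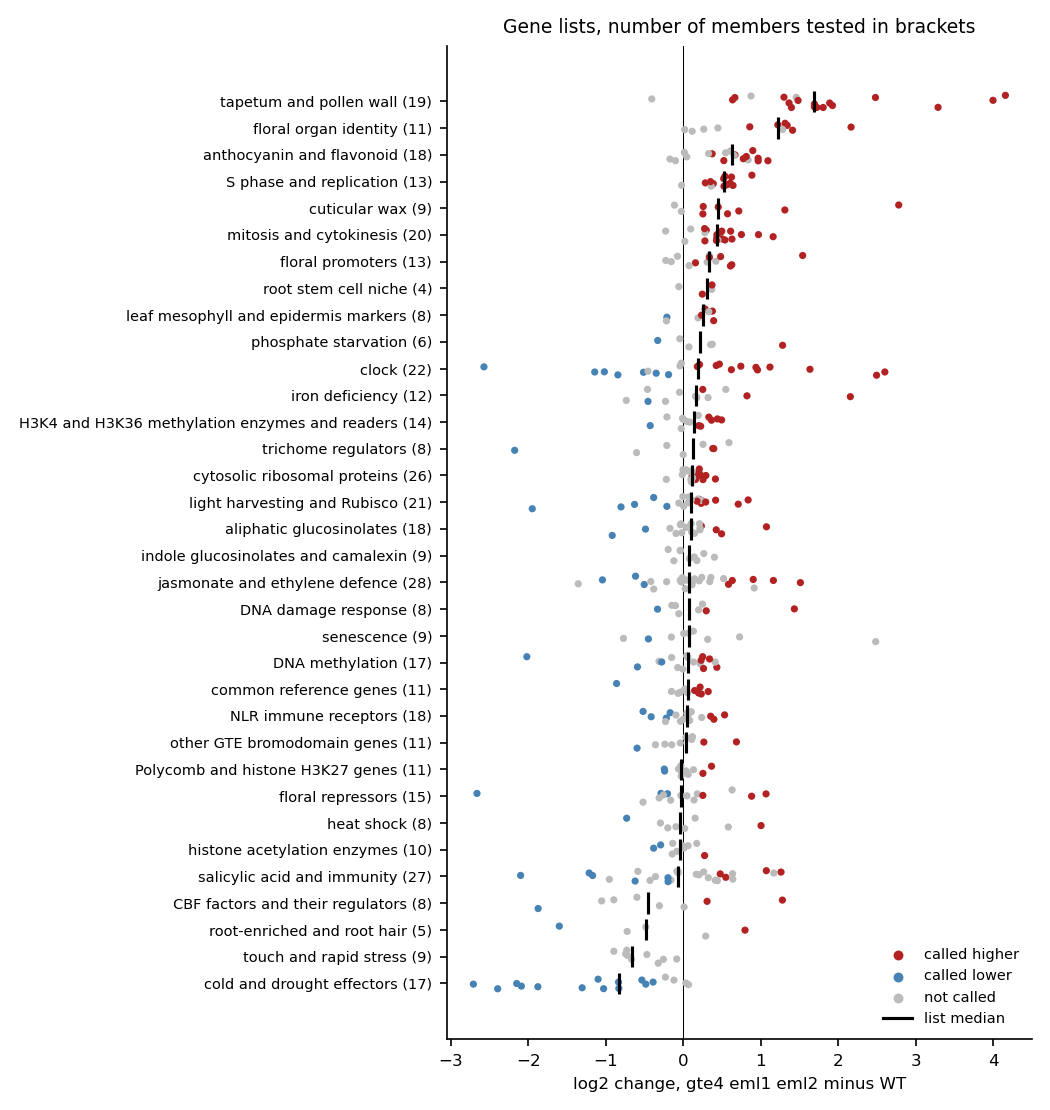
Log2 changes (gte4 eml1 eml2 minus WT) of the tested members of 34 gene lists, red for genes that rose, blue for genes that fell and grey for genes not called, with a black line at each list's median. Tapetum and floral organ genes lie highest, with medians of 1.69 and 1.22, and cold and drought effectors lowest, at -0.84.

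The direction of small changes moved with gene length. Over 16738 genes with a mean of at least 50, the log2 change and the summed exon length had a Spearman correlation of 0.226 across genes, which are not independent replicates. The median log2 change was -0.12 in the fifth of genes with the shortest exons and 0.09 in the fifth with the longest. With this trend removed, 4007 genes rose and 3527 fell. Of 26 cytosolic ribosomal protein genes tested, which are short, 11 rose and none fell, where 15.4% of all genes rose. Their median was 0.11. With the length trend removed, 24 rose. The counts were 7 to 9 higher and 0 to 1 lower with WT replicate 1 or 3 left out. RPL3B, the first of them by size, averaged 1209 ± 60.2 in gte4 eml1 eml2 and 906 ± 12.9 in WT (log2 change 0.41). Against gte4, 12 of the 26 were lower in the triple mutant, where 5.08% of all genes were. That count was not taken again with the length trend removed, a setting in which calls against gte4 over all genes went from 2131 to 576. Among 11 genes used as expression references, 5 rose and 1 fell, where 15.4% of all genes rose and 18.2% fell. The counts were 3 to 5 higher and 1 to 2 lower with gte4 eml1 eml2 replicate 1 or 3 or WT replicate 1 left out. TIP41L averaged 460.0 ± 25.9 in gte4 eml1 eml2 and 837 ± 69.9 in WT (log2 change -0.86, limma adjusted p = 5.28e-06), and UBQ10 rose by 0.32.

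Markers of other tissues and stresses were mixed. The tissue lists are read against the 15.4% of all genes that rose and the 18.2% that fell. Of 5 root-enriched genes tested, 1 rose, 1 fell and 3 did not pass the test. COW1, a gene of root hair growth, had 30.2, 34.5 and 42.8 normalized counts in gte4 eml1 eml2 and 103, 111 and 114 in WT (log2 change -1.60), and PYK10, a beta-glucosidase of root ER bodies, had 2939, 2922 and 3117 in gte4 eml1 eml2 and 2033, 1406 and 1787 in WT (log2 change 0.80). Both also differed from eml1 eml2 (limma adjusted p = 0.00463 and 0.0105). The 4 root stem cell niche genes tested had 2 rises and 0 falls, against 1 higher with gte4 eml1 eml2 replicate 1 or 3 or WT replicate 1, 2 or 3 left out. Of 8 leaf mesophyll and epidermis markers, 4 rose and 1 fell, against 3 to 4 higher and 0 lower with gte4 eml1 eml2 replicate 3 or WT replicate 2 or 3 left out. ATML1, an epidermal identity factor, averaged 5188 ± 174 in gte4 eml1 eml2 and 3997 ± 45 in WT. GIS, a trichome regulator, had 53.6, 38.2 and 45 in gte4 eml1 eml2 and 239, 230.0 and 163 in WT (log2 change -2.18, limma adjusted p = 5.39e-07), while TTG1 rose by 0.39.

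Of 12 iron deficiency genes tested, 3 rose and 1 fell, and of 6 phosphate starvation genes 1 rose and 1 fell, which is the 33.6% called among all genes to within 1 gene. FRO3, an iron reductase gene, averaged 1057 ± 56.2 in gte4 eml1 eml2 and 599 ± 63.2 in WT (log2 change 0.82), and MGD3, of the phosphate starvation response, averaged 197 ± 4.11 in gte4 eml1 eml2 and 81.4 ± 15.1 in WT (log2 change 1.28, limma adjusted p = 4.77e-06). The iron transporter IRT1 had 1.34, 11 and 2.15 in gte4 eml1 eml2 and is listed at 0 in all 3 WT samples, and its rise was not called with gte4 eml1 eml2 replicate 2 left out (limma adjusted p = 0.125). The ubiquitin ligase gene BTS rose by 0.25, a call lost on leaving out gte4 eml1 eml2 replicate 2 or 3 or WT replicate 2 or 3 (limma adjusted p of 0.0889 to 0.145) and in 4 other settings, and with the exon length trend removed its change was 0.11. The transcription factor gene PYE fell, averaging 168 ± 17.5 in gte4 eml1 eml2 and 232 ± 26.4 in WT (log2 change -0.45, limma adjusted p = 0.00964). Without gte4 eml1 eml2 replicate 2 the iron list had 1 rise and 1 fall. SQD2, a sulfolipid synthesis gene of the phosphate list, fell, with 2191, 2180.5 and 2191 in gte4 eml1 eml2 and 2749, 2703 and 2798 in WT (log2 change -0.33, limma adjusted p = 0.00012). Of 9 senescence genes tested, only the chlorophyll b reductase NYC1 passed, at 11209 ± 832 in gte4 eml1 eml2 and 15283 ± 299 in WT. Of 8 heat shock genes tested, 1 rose and 1 fell, also near the 33.6% called among all genes. The coactivator MBF1C fell by 0.73 (limma adjusted p = 0.00198) and the heat shock factor HSFA2 rose, with 29.7, 24.2 and 26.2 in gte4 eml1 eml2 and 15.9, 13.5 and 9.65 in WT (limma adjusted p = 0.0299), a call lost on leaving out gte4 eml1 eml2 replicate 1, 2 or 3 or WT replicate 2 or 3 (limma adjusted p of 0.0536 to 0.113) and in 1 other setting.

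None of 9 touch and rapid stress genes passed limma's adjusted test, and 0 had an unadjusted p under 0.05, although all had negative log2 changes, with a median of -0.67. The values of the list summed to 2604, 4507 and 7964 in the gte4 eml1 eml2 samples and to 2404, 7303 and 16171 in the WT samples, and the genotypes overlapped. In all 4 genotypes the sum was lowest in the sample numbered 1 and highest in the sample numbered 3. The part of this spread in the other lists was not tested.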

How the data were processed

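Total RNA of 12 seedling samples, 4 genotypes with 3 samples each, was sequenced. The authors deposited 1 table of normalized read counts, treated here as a signal per gene and sample. Per the submitters' processing notes, bcl2fastq, HISAT2, edgeR and the build TAIR10 were used; the counting program, annotation and strand are not given in the sources used here. The values are not whole numbers, the lowest values are 0 or a floor close to 0, and totals are nearly equal, so read depth is unknown.

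Values were transformed as log2(value + 1) for genes with a mean of at least 1. All 12 samples entered 1 linear model by genotype (limma 3.58.1, R 4.3.3), and variances were moderated robustly along their trend with the mean. Calls need a Benjamini-Hochberg adjusted p under 0.05. With 3 samples against 3, the smallest exact permutation p is 0.1. The method was tested on simulated data. Alternatives changed the pseudocount, filter, scaling, model, length trend and samples.

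The members and the 35 gene lists (484 genes, 466 tested) were chosen with earlier results of these data known. Genes named are the 12 largest rises and 12 largest falls among called genes with separate groups and a mean of at least 20 in the higher one, up to 4 called members of each list, the mutated genes, EML3, EML4, FLC, FT, SOC1, and the cold genes with printed promoters. KIN2, COR47, RD29A, RAB18, CBF2, CBF3, PRR5, PRR7, GI, LUX, RVE7, FKF1, ELF4, BOA, TOC1, A6, MS2 and ICS1 were chosen after their values were seen. Of the 18 list members not tested, several are listed at 0 and share nearly all exon bases with another gene, such as MYC2 (98.5%), F3H (93.8%) and LHCB1.5 (100%). Names, positions, exon lengths and sequences come from RefSeq TAIR10.1, in which all 32548 gene IDs were found. The COR15B window is counted but not printed, and 1 other promoter window is not reported here and is in no motif count.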

Additional observations from a re-analysis of the deposited data

How the results depend on the processing

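Under 19 alternatives the count of genes changed against WT stayed within 1.5 times of 7495, and of 133 named genes called, 100 kept their call in every alternative tried and 33 lost it in at least 1; no named change reversed. Leaving out 1 sample of gte4 eml1 eml2 or WT gave 6067 to 7044 calls, 2709 to 3373 rises and 3347 to 3671 falls. Removing the exon length trend gave 4007 rises and 3527 falls, and median-of-ratios scaling 3818 and 3720. The counts against the partial mutants were less stable. Against gte4, 2131 calls became 393 with no trend and no robust moderation, 576 with the length trend removed, and 436 to 2748 with 1 sample left out, 436 without gte4 eml1 eml2 replicate 2 and 1198 without replicate 3. Against eml1 eml2, 370 calls became 199 with no trend and no robust moderation and 155 to 449 with 1 sample left out, 155 without gte4 eml1 eml2 replicate 1 and 169 without replicate 3. The cause was not tested.

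Same-numbered samples of gte4 eml1 eml2 and WT had deviations from their genotype means that correlated at 0.376, -0.124 and 0.534 over 16738 genes. Samples with unlike numbers correlated at -0.509 to 0.169. The labels give no pairing and the samples numbered 2 correlated negatively, so the main fit took no pairs. A fit with a replicate block gave 8764 calls against WT, 3358 against gte4 and 682 against eml1 eml2 (828 with the length trend removed as well), and 4 touch genes lower. Read depth is not recorded in normalized values, so counting error could not be given, and genes with values of a few counts are the least certain.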
